A study of Mus musculus with 42 samples.

Results

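The genes described here are the metallothioneins Mt1 and Mt2 and the metal-responsive transcription factor Mtf1 in mouse bone marrow-derived macrophages, which are macrophages differentiated in culture from bone marrow with M-CSF, a macrophage growth factor. They were chosen by symbol, and all 3 were present among the 11160 genes of the deposited table, while the other mouse metallothioneins Mt3 and Mt4 were not analysed here. KO cells, in which MS4A4A (a membrane protein of macrophages) was knocked out, and wild-type cells (WT) were replated after differentiation and taken after 2, 8 or 24 h with 1 µM dexamethasone (Dex), after 2, 8 or 24 h with vehicle, or untreated at the start. Dex is a synthetic agonist of the glucocorticoid receptor. Each of the 14 groups held 3 libraries, making 42, with 10140211 to 33528397 estimated counts in a library. The labels give neither the part of the Ms4a4a gene that was removed, nor the animals' strain, sex or age, nor whether the replicates came from separate animals or cultures, so the spread behind the p-values is that of these libraries only and may be technical.

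Metallothioneins are small, cysteine-rich proteins that bind zinc and copper through the sulphur of their cysteines and are known to buffer these metals and to protect against toxic ones such as cadmium. Mtf1 encodes a zinc-finger factor that is known to sense free zinc, to enter the nucleus and to bind short metal response elements in the promoters of metallothionein genes and of the zinc exporter gene Slc30a1. In rodents the metallothionein genes are also known as targets of glucocorticoids, and in macrophages they are known to take part in withholding zinc from microbes.

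Mt2 and Mt1 lie next to each other on the plus strand of chromosome 8 of GRCm38, Mt2 (ENSMUSG00000031762) from 94172664 to 94173568 and Mt1 (ENSMUSG00000031765) from 94179082 to 94180327, with 5513 bp between them. Mtf1 (ENSMUSG00000028890) lies on chromosome 4 from 124802104 to 124849800, on the plus strand, and all 3 are annotated as protein-coding in GENCODE M21. The coding sequences of the first annotated transcripts of Mt1 and Mt2 are shown because the genes are close copies, so that reads could be shared between them in the authors' estimates. Capitals mark the bases that differ.
Mt1: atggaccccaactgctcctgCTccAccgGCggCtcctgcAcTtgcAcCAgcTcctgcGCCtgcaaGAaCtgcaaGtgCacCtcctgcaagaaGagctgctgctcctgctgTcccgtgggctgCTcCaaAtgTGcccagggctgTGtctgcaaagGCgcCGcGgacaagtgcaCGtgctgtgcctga
Mt2: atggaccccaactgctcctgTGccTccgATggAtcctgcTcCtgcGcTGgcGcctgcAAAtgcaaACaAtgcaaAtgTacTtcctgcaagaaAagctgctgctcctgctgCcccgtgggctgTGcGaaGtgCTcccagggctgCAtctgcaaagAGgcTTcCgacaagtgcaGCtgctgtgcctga
Both are 186 bases long and encode 61 residues, of which 20 are cysteines in each. They differ at 38 bases, which leaves 79.6% identity. The longest identical run is 20 bases, and the whole transcripts, of 549 bases for Mt1 and 511 bases for Mt2, share 0 stretches of 31 bases. The estimated counts were within 0.01 of a whole number in 42 of 42 libraries for Mt1 and in 40 of 42 for Mt2.

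The sequence before each start is shown because Mt1 and Mt2 moved together in the values below. These are bases of the RefSeq promoter windows of GRCm38.p6, at chr8:94178839-94179081 for Mt1 and chr8:94172368-94172617 for Mt2, on the plus strand, and capitals mark the metal response core, searched as TGCACNC or TGCGCNC on both strands.
Mt1: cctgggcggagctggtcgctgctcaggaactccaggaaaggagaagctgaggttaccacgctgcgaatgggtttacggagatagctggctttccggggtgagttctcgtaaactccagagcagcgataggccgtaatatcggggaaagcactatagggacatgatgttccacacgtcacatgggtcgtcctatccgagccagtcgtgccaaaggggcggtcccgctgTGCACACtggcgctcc
Mt2: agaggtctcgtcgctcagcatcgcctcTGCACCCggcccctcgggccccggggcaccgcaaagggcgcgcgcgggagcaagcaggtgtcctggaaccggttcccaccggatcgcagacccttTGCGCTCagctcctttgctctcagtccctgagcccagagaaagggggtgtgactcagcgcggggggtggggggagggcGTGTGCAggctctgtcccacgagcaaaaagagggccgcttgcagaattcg
The core was found 1 time before Mt1 and 3 times before Mt2. Among the 32851 windows of 250 bases before RefSeq starts, 21.4% held at least 1 core and 1.26% held at least as many as Mt2. The half-site of the glucocorticoid receptor, searched as AGAACA on both strands, was found 0 times in either sequence, against 16.1% of all windows, and its inverted repeat was found 0 times too, against 0.00913%. The matches are letters and not tested sites. Only the exact letters given were searched for the receptor. The Mt1 window holds GGAACA on its minus strand, which differs from the searched form in its first letter and was not counted. The inverted repeat is so rare among all windows that its absence here says little. The search thus does not show that the windows lack a receptor half-site. The window before Mt1 has 243 bases, other annotated transcripts start up to 159 bases further into Mt1 and 196 bases further into Mt2, and neither the bases from the first start on nor those beyond the windows were searched. The window of Mt2 ends at 94172617, short of the annotated Mt2 start at 94172664, and the bases between were not searched. That of Mt1 ends at 94179081, directly before the annotated start at 94179082. The counts of cores thus do not compare like stretches of the promoters.

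The labels were checked on the targeted gene and on known Dex targets. Ms4a4a stood at 44.3 to 49.6 CPM (counts scaled to a common library size with TMM factors) in untreated KO libraries and at 81.8 to 93.5 CPM in untreated WT libraries, without overlap, a log2 difference of -0.93 that did not pass alone (adjusted p = 0.679, edgeR). Averaged over the conditions without Dex the difference was -1.05 ± 0.11 (adjusted p = 3.01e-07, edgeR). With vehicle at 24 h KO and WT overlapped, at 53.5 to 179 CPM in KO and 142 to 213 CPM in WT, and with Dex at 24 h Ms4a4a stood at 747 to 802 CPM in KO and 1500 to 1680 CPM in WT, so its transcript was measurable in every KO group. Fkbp5, a known glucocorticoid target, stood at 298 to 1160 CPM in the Dex libraries. In vehicle libraries it stood at 12.4 to 21.3 CPM in all but the KO vehicle library of 24 h with number 2, which had 69.9 CPM of Fkbp5 and, at 179 CPM, the highest Ms4a4a level of its group. Tsc22d3, another known target, stood at 1580 to 2740 CPM with Dex and at 191 to 255 CPM with vehicle at 2 and 8 h. With vehicle at 24 h it stood at 311, 529 and 187 CPM in KO and 360, 187 and 229 CPM in WT. The WT library with 360 CPM also had the highest Fkbp5 (19.0 CPM) and Ms4a4a (213 CPM) of its group. Results of Mt1 and Mt2 that rest on the KO library with 69.9 CPM of Fkbp5 are also given without it. The 7 macrophage markers were all measured and summed to 17600 to 42000 CPM.

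Mt1 was measured at 60.8 ± 10.0 CPM in untreated KO cells and at 81.1 ± 8.24 CPM in untreated WT cells (SD, n = 3 each). At 2 h its level was 144, 188 and 122 CPM in KO libraries with Dex and 202, 152 and 110 CPM in WT libraries with Dex, against 72.2, 85.7 and 78.7 CPM in KO vehicle libraries and 121, 80.7 and 89.4 CPM in WT vehicle libraries. All 3 KO libraries with Dex lay above their vehicle libraries, while in WT the lowest Dex library lay below the highest vehicle library. At 8 h its level was 184, 213 and 188 CPM in KO with Dex and 275, 221 and 199 CPM in WT with Dex, against 67.3, 89.2 and 58.8 CPM in KO vehicle and 95.8, 99.9 and 71.7 CPM in WT vehicle. At that time the lowest Dex library stood 2.06-fold above the highest vehicle library in KO and 2.00-fold above it in WT. At 24 h its level was 183, 248 and 186 CPM in KO with Dex and 281, 285 and 174 CPM in WT with Dex, against 96.0, 107 and 88.4 CPM in KO vehicle and 137, 132 and 91.3 CPM in WT vehicle. The Dex and vehicle libraries did not overlap at 24 h in either genotype. Over the whole study 16 of 18 Dex libraries lay above each of the 24 libraries without Dex, and the exceptions were the libraries with number 3 of the 2 h Dex groups.

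Mt2 was measured at lower levels, 4.50 ± 1.12 CPM in untreated KO cells and 6.94 ± 1.75 CPM in untreated WT cells (SD, n = 3 each). At 2 h its level was 21.95, 25.2 and 18.2 CPM in KO with Dex and 37.6, 23.3 and 15.7 CPM in WT with Dex, against 5.46, 9.09 and 7.77 CPM in KO vehicle and 12.8, 8.85 and 8.44 CPM in WT vehicle. At 8 h its level was 24.1, 33.9 and 28.4 CPM in KO with Dex and 51.6, 35.0 and 32.2 CPM in WT with Dex, against 4.74, 7.02 and 5.27 CPM in KO vehicle and 6.88, 7.86 and 6.18 CPM in WT vehicle. This was the widest gap between the treatments, with the lowest Dex library 3.44-fold above the highest vehicle library in KO and 4.09-fold above it in WT. At 24 h its level was 19.9, 32.5 and 19.3 CPM in KO with Dex and 38.3, 38.3 and 20.1 CPM in WT with Dex, against 8.61, 10.8 and 8.74 CPM in KO vehicle and 12.0, 10.6 and 6.57 CPM in WT vehicle. All 18 Dex libraries lay above all 24 libraries without Dex, at 15.7 to 51.6 CPM against 3.63 to 12.8 CPM.

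Mtf1 was nearly level over the study, at 23.3 to 31.5 CPM in the 18 Dex libraries and at 22.3 to 29.5 CPM in the 24 libraries without Dex. Its group means ran between 23.7 ± 0.29 CPM in KO with Dex at 2 h and 28.3 ± 3.24 CPM in WT with Dex at 24 h (SD, n = 3), and the highest of the 14 means was 1.19-fold above the lowest. For comparison the highest group mean was 4.06-fold above the lowest for Mt1 and 8.79-fold for Mt2. Per kilobase of the transcript numbered 201 in the annotation, the mean level in untreated KO cells was 111 CPM for Mt1, 8.81 CPM for Mt2 and 3.35 CPM for Mtf1.

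**Figure D1:**
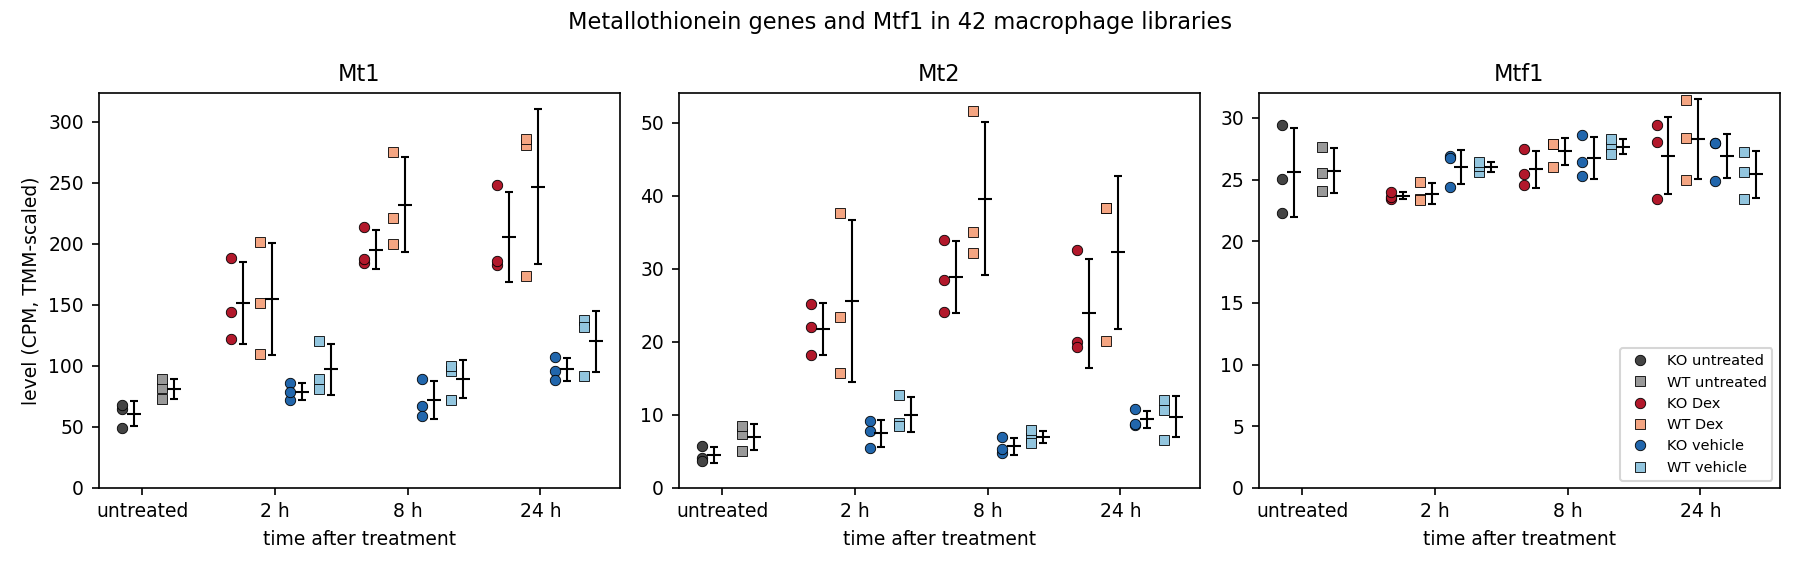
Level of Mt1, Mt2 and Mtf1 (CPM, each panel from 0) in every library by time after treatment, with circles for KO, squares for WT and the mean ± SD of 3 libraries beside each group. Mt1 and Mt2 are high in the Dex groups at each time, with all 18 Dex libraries of Mt2 above its 24 libraries without Dex, while Mtf1 stays between 22.3 and 31.5 CPM.

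In the order of the 14 group means, the 6 Dex groups took the 6 highest places for Mt1 and for Mt2. Neighbours in that order had overlapping libraries throughout for Mt1, so none of them differed beyond its spread. For Mt2 the only neighbours without overlap were KO Dex at 2 h (21.8 ± 3.52 CPM) and, next below it, WT vehicle at 2 h (10.0 ± 2.39 CPM). For Mtf1 all neighbours overlapped, and the 2 h Dex groups of KO and WT held the lowest places.

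Dex raised both metallothionein genes at each time, Mt2 by more than Mt1 on the log2 scale, and Mtf1 did not pass the test at any time. Averaged over KO and WT, Mt1 rose by 0.81 ± 0.15 on the log2 scale at 2 h (SE; 1.75-fold, adjusted p = 8.83e-05, edgeR quasi-likelihood with Benjamini-Hochberg adjustment over all genes). It rose by 1.41 ± 0.15 at 8 h (2.66-fold, adjusted p = 1.01e-09, edgeR) and by 1.06 ± 0.15 at 24 h (2.08-fold, adjusted p = 2.79e-07, edgeR). Mt2 rose by 1.45 ± 0.20 at 2 h (2.74-fold, adjusted p = 8.29e-07, edgeR), by 2.42 ± 0.21 at 8 h (5.36-fold, adjusted p = 7.4e-12, edgeR) and by 1.53 ± 0.20 at 24 h (2.89-fold, adjusted p = 7.91e-08, edgeR). These stand beside a background of 8.14% of all genes called higher at 2 h, 27.5% at 8 h and 26.8% at 24 h, and of 6.41%, 24.7% and 26.8% called lower at the same times. By size of the log2 fold change Mt2 ranked 113, 110 and 197 and Mt1 ranked 265, 300 and 385 of 11160 genes at 2, 8 and 24 h. The Mtf1 differences were -0.13 at 2 h (95% interval -0.26 to -0.005, adjusted p = 0.198, edgeR), -0.04 at 8 h (-0.16 to 0.09, adjusted p = 0.655) and 0.08 at 24 h (-0.05 to 0.20, adjusted p = 0.314). The intervals at each time therefore lie within 0.26 of no change on the log2 scale.

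Within each genotype Mt1 and Mt2 were called higher in all 6 comparisons of Dex with vehicle. In KO the log2 fold change of Mt1 was 0.94 ± 0.21, 1.44 ± 0.21 and 1.08 ± 0.21 at 2, 8 and 24 h, beside 5.76%, 20.6% and 18.2% of all genes called higher. In WT it was 0.67 ± 0.21, 1.38 ± 0.21 and 1.04 ± 0.21, beside 5.85%, 19.8% and 20.7%. The log2 fold change of Mt2 was 1.55 ± 0.29, 2.34 ± 0.30 and 1.35 ± 0.29 in KO and 1.35 ± 0.28, 2.50 ± 0.29 and 1.71 ± 0.28 in WT. The weakest of these calls was Mt1 in WT at 2 h (adjusted p = 0.0359, edgeR), and it did not pass without the WT Dex library with number 1 (0.43, adjusted p = 0.316, edgeR), without that with number 2 (adjusted p = 0.0688), without the WT vehicle library with number 2 (0.55, adjusted p = 0.16) or 3 (0.62, adjusted p = 0.14), or fitted on these 6 libraries alone (0.67, adjusted p = 0.121). Without the KO vehicle library of 24 h that stood apart, the 24 h change in KO was 1.15 for Mt1 (adjusted p = 0.000316, edgeR) and 1.45 for Mt2 (adjusted p = 0.000842, edgeR), and the average over the genotypes was 1.09 (adjusted p = 9.22e-07) and 1.58 (adjusted p = 3.31e-07).

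**Figure D2:**
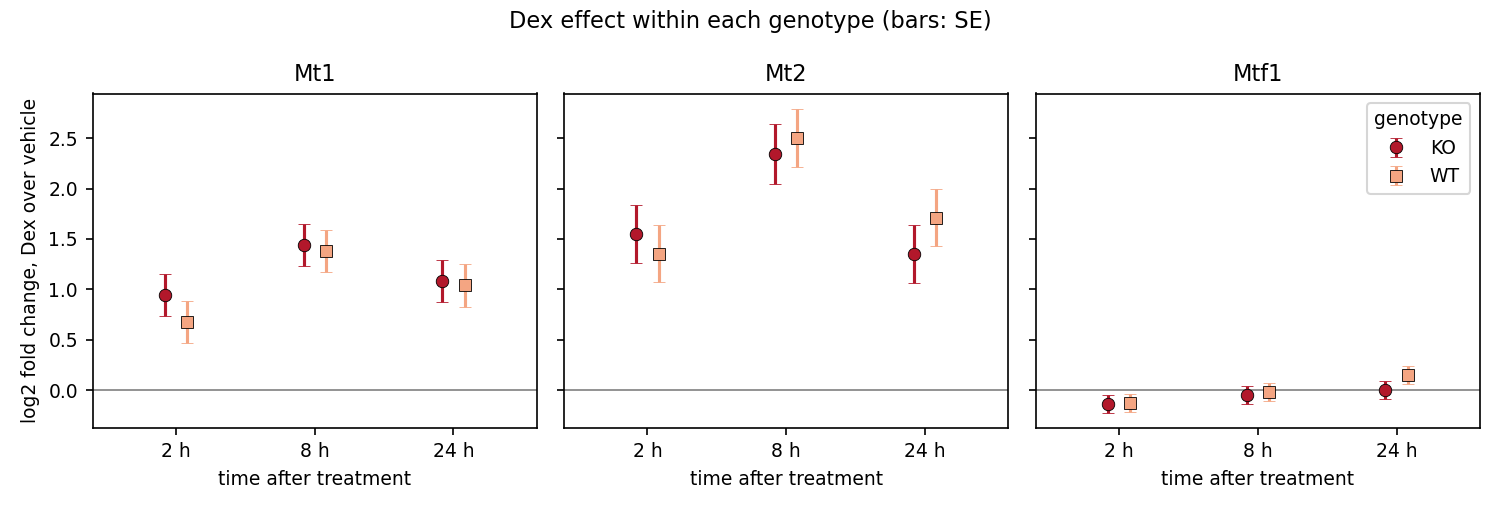
Log2 fold change of Dex over vehicle (y axis) at 2, 8 and 24 h (x axis) for each gene in KO (circles) and WT (squares), with bars for the SE of the fit. Mt1 and Mt2 lie above 0 at each time and highest at 8 h, at 2.34 in KO and 2.50 in WT for Mt2, and Mtf1 stays near 0.

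The change with Dex was larger at 8 h than at 2 h, by 0.60 ± 0.21 for Mt1 (adjusted p = 0.026, edgeR) and by 0.97 ± 0.29 for Mt2 (adjusted p = 0.00882, edgeR), in a comparison in which 31.0% of all genes were called in either direction. For Mt1 this passed in 17 of 24 fits without 1 library. It did not pass without the WT vehicle library of 2 h with number 1, the WT Dex library of 8 h with number 1, the KO vehicle library of 2 h with number 2, either Dex library of 2 h with number 3, or either vehicle library of 8 h with number 3, with values of 0.48 to 0.55 and adjusted p of 0.0542 to 0.0727 (edgeR). From 8 to 24 h the change of Mt2 became smaller, by -0.89 ± 0.29 (adjusted p = 0.0191, edgeR), beside 25.9% of all genes called. Without the KO vehicle library that stood apart it was -0.83 (adjusted p = 0.0385, edgeR). With the counts of Mt1 and Mt2 summed to a single row it came to -0.41 ± 0.22, which is not past the threshold (adjusted p = 0.168, edgeR). For Mt1 the difference between 24 and 8 h was -0.35 ± 0.21 (adjusted p = 0.233, edgeR), and -0.31 without that library (adjusted p = 0.324). Both are relative to vehicle, whose mean levels were higher at 24 h than at 8 h. With vehicle, Mt2 went from 5.67 to 9.37 CPM in KO and from 6.97 to 9.75 CPM in WT. With Dex, Mt2 went from 28.8 to 23.9 CPM in KO and from 39.6 to 32.2 CPM in WT. Mt1 went from 71.8 to 97.2 CPM in KO and from 89.1 to 120 CPM in WT with vehicle. With Dex, Mt1 went from 195 to 206 CPM in KO and from 232 to 247 CPM in WT. Mtf1 was not called in either comparison of times.

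Mt2 made up a larger share of the metallothionein counts after Dex. The share rises whenever Mt2 rises by more than Mt1, so it restates the fold changes above and is not a separate finding. At 2 h the share of Mt2 in the summed Mt1 and Mt2 counts was 13.2, 11.8 and 13.0% in KO with Dex and 15.7, 13.3 and 12.5% in WT with Dex, against 7.02, 9.60 and 8.99% in KO vehicle and 9.57, 9.88 and 8.62% in WT vehicle. At 8 h it was 11.6, 13.7 and 13.2% in KO with Dex and 15.8, 13.6 and 13.9% in WT with Dex, against 6.58, 7.29 and 8.22% in KO vehicle and 6.70, 7.30 and 7.94% in WT vehicle. At 24 h it was 9.83, 11.6 and 9.39% in KO with Dex and 12.0, 11.8 and 10.4% in WT with Dex, against 8.23, 9.11 and 9.0% in KO vehicle and 8.05, 7.49 and 6.71% in WT vehicle. In each genotype and at each time all Dex libraries lay above all vehicle libraries. The difference of the mean shares was 4.31 percentage points at 2 h, 6.29 at 8 h and 2.74 at 24 h, each with p = 0.005 in an exact two-sided permutation test within genotype (6 Dex against 6 vehicle libraries, adjusted p = 0.005 over the 3 times), which is the smallest p the 400 arrangements allow. Without the KO vehicle library of 24 h that stood apart, the 24 h difference was 2.94 percentage points (exact permutation p = 0.01, adjusted over the 3 times).

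**Figure D3:**
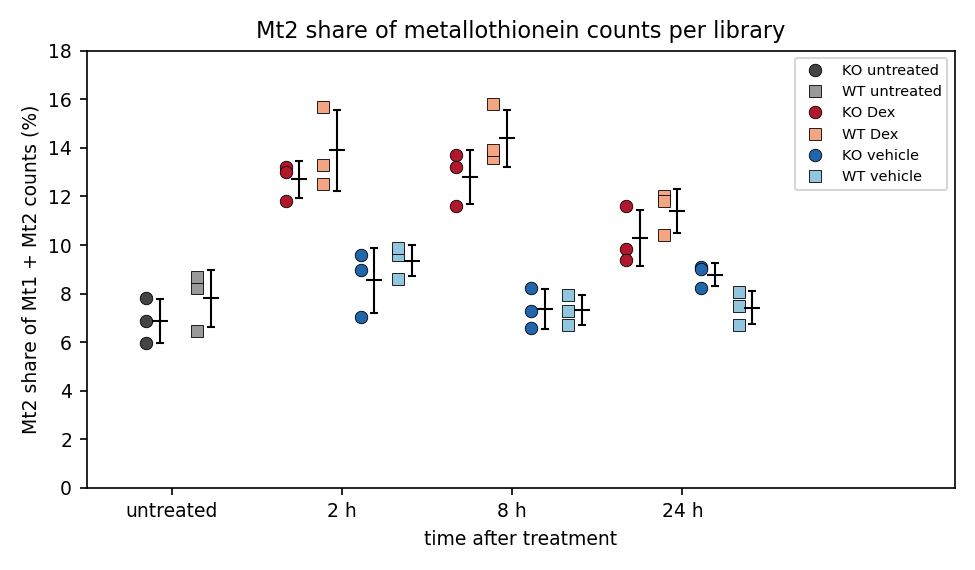
Share of Mt2 in the summed Mt1 and Mt2 counts (y axis, %, from 0) in every library by time after treatment, with the mean ± SD of 3 libraries beside each group. The Dex libraries lie at 9.39 to 15.8% and the vehicle libraries at 6.58 to 9.88%, and within a genotype and time they do not overlap.

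Markers of other cell types were measured beside these changes. Of 7 stromal markers 5 were measured, and at 24 h they summed to 31.1 to 87.0 CPM in KO with Dex and 15.7 to 88.2 CPM in WT with Dex, against 11.0 to 28.4 CPM in KO vehicle and 8.17 to 32.3 CPM in WT vehicle. At 2 and 8 h they summed to at most 22.7 CPM in any library. The dendritic cell markers Flt3 and Zbtb46, 2 of 3 listed, summed to 5.80 to 6.13 CPM in KO and 4.53 to 6.26 CPM in WT with Dex at 8 h, against 0.45 to 1.27 CPM in KO and 0.32 to 1.23 CPM in WT with vehicle. Of the mast cell or basophil markers 1 of 3 was measured, Kit, which at 8 h stood at 1.03 to 3.0 CPM in KO and 1.65 to 3.94 CPM in WT with Dex, against 4.47 to 8.11 CPM in KO and 6.82 to 9.77 CPM in WT with vehicle. Of the B cell markers 1 of 3 was measured, Cd79b, at 0.48 to 3.74 CPM over the study. It stood at 0.48 to 0.77 CPM in KO and 0.58 to 0.76 CPM in WT with Dex at 24 h, against 1.59 to 2.00 CPM in KO and 1.60 to 2.13 CPM in WT with vehicle. At the same time Flt3 and Zbtb46 summed to 2.17 to 3.02 CPM in KO and 2.84 to 3.94 CPM in WT with Dex, against 0.60 to 1.03 CPM in KO and 0.65 to 1.10 CPM in WT with vehicle, and Kit stood at 0.48 to 1.90 CPM in KO and 1.07 to 2.26 CPM in WT with Dex, against 3.22 to 3.54 CPM in KO and 4.93 to 6.87 CPM in WT with vehicle. Over the study 4 of 7 neutrophil markers summed to 12.2 to 91.8 CPM. The other listed markers, among them all those of T cells and erythroid cells, were not analysed here. The part of these levels in the metallothionein changes was not tested, and in bulk samples fewer cells of a type and less RNA per cell cannot be told apart.

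The comparison of KO with WT asks whether loss of MS4A4A goes with a different metallothionein level. The mean level of Mt1 and of Mt2 was lower in KO than in WT in all 7 conditions, but no member passed the test in any of them. The log2 differences, KO over WT, lay between -0.42 and -0.03 for Mt1, between -0.67 and -0.07 for Mt2 and between -0.08 and 0.08 for Mtf1. In untreated cells Mt1 stood at 64.8, 68.1 and 49.4 CPM in KO and at 81.6, 89.0 and 72.5 CPM in WT, without overlap, a difference of -0.42 ± 0.21 (adjusted p = 1.0, edgeR). In the same cells Mt2 stood at 4.11, 5.77 and 3.63 CPM in KO and at 7.33, 8.46 and 5.02 CPM in WT, which overlapped, a difference of -0.67 ± 0.32 (adjusted p = 1.0, edgeR). KO was below WT in 17 of 21 sets of libraries with the same condition and number for Mt1, in 16 of 21 for Mt2 and in 11 of 21 for Mtf1, with 3 sets in each condition. Same-numbered KO and WT libraries did not pair in untreated cells or with Dex at 8 and 24 h. The labels do not say whether conditions share cultures, so conditions and sets may not be separate observations. How many of all genes show such counts, or no overlap, was not measured, so these counts cannot weigh a KO difference.

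Few genes of the table were called between KO and WT at all. By edgeR quasi-likelihood 0.0% were called in untreated cells, 24 h vehicle cells and 2 and 8 h Dex cells, 0.00896% after 2 h and after 8 h of vehicle and 0.0448% after 24 h of Dex. Where edgeR called 0 genes, 343 in untreated cells, 664 after 24 h of vehicle, 947 after 2 h of Dex and 177 after 8 h of Dex had an unadjusted p under 0.05, and DESeq2 called 0, 0, 4 and 0. Averaged over the untreated and the 3 vehicle conditions, Mt1 differed by -0.33 ± 0.11 (95% interval -0.55 to -0.12, unadjusted p = 0.00337, adjusted p = 0.256, edgeR) and Mt2 by -0.37 ± 0.15 (-0.68 to -0.05, unadjusted p = 0.0224, adjusted p = 0.48, edgeR), neither past the threshold, beside 0.224% of genes called. With the replicate number as a block, where same-numbered libraries paired in the vehicle conditions and not in untreated cells, Mt1 passed (-0.33, adjusted p = 0.0221, edgeR), and with the counts summed over the conditions into 3 sets a side it did not (-0.34, adjusted p = 1.0). Without the KO vehicle library of 24 h that stood apart the unblocked values were -0.35 (adjusted p = 0.251) and -0.39 (adjusted p = 0.461, edgeR), and with vehicle at 24 h alone KO over WT was -0.38 for Mt1 and -0.19 for Mt2 without it (adjusted p = 0.999 each), against -0.31 and -0.07 with it. Mtf1 differed by 0.006 (-0.08 to 0.10, adjusted p = 0.982, edgeR).

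**Figure D4:**
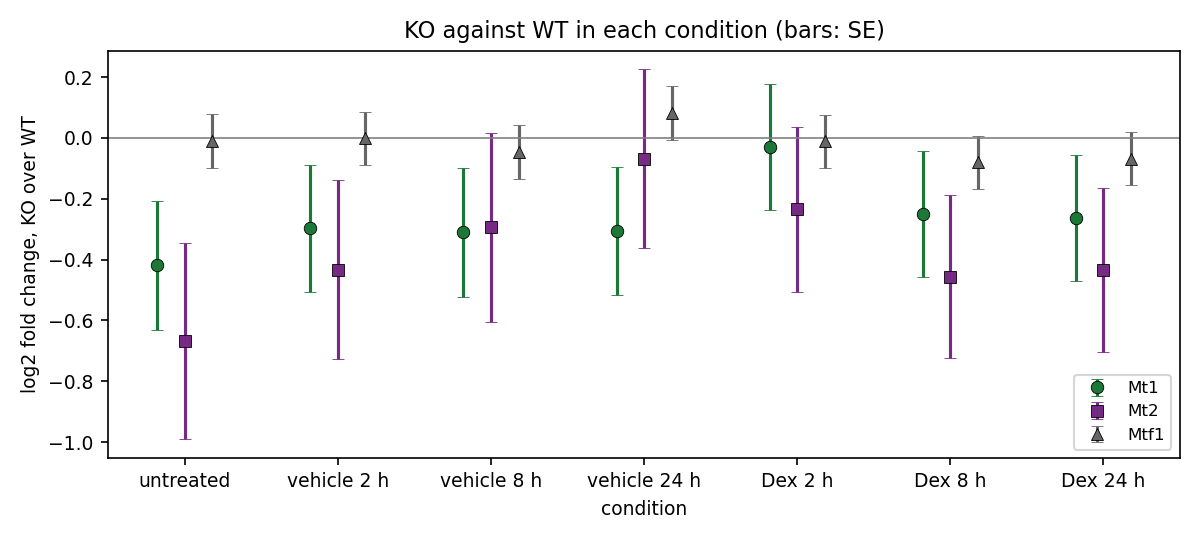
Log2 fold change of KO over WT (y axis) in the 7 conditions (x axis) for Mt1, Mt2 and Mtf1, with bars for the SE of the fit. The points of Mt1 and Mt2 lie below 0 in each condition, between -0.67 and -0.03, and none passed the test.

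The response to Dex did not differ between KO and WT beyond the threshold for any member. The Dex effect in KO minus that in WT was 0.27 at 2 h, 0.06 at 8 h and 0.04 at 24 h for Mt1, with 95% intervals of -0.33 to 0.87, -0.54 to 0.66 and -0.56 to 0.64. For Mt2 it was 0.20, -0.16 and -0.37, with intervals of -0.61 to 1.01, -0.99 to 0.67 and -1.18 to 0.45. Without the KO vehicle library that stood apart the 24 h values were 0.12 for Mt1 (adjusted p = 0.981, edgeR) and -0.25 for Mt2 (adjusted p = 0.978). Mtf1 gave -0.01, -0.03 and -0.15. In this comparison 0.0% of genes were called by edgeR at each time, while DESeq2 called 0, and the unadjusted p was under 0.05 for 986, 133 and 564 genes.

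In vehicle cells both metallothionein genes were higher than in untreated cells after 24 h, averaged over the genotypes. Mt1 rose by 0.62 ± 0.15 (1.54-fold, adjusted p = 0.00158, edgeR) and Mt2 by 0.76 ± 0.22 (1.70-fold, adjusted p = 0.00732, edgeR), beside 31.0% of genes called in either direction. Without the KO vehicle library that stood apart the values were 0.59 (adjusted p = 0.00527) and 0.71 (adjusted p = 0.0223, edgeR). The stromal markers given above summed to 8.17 to 32.3 CPM in the 24 h vehicle libraries and 3.89 to 10.9 CPM in the untreated ones. The macrophage markers summed to 30200 to 39500 CPM in the 24 h vehicle libraries and 21100 to 26000 CPM in the untreated ones, and the part of either in this change was not tested. The check genes were higher in 24 h vehicle cells too, with all libraries in the fit. Fkbp5 rose by 0.87 ± 0.22 (adjusted p = 0.00265, edgeR) and Tsc22d3 by 0.51 ± 0.14 (adjusted p = 0.00394, edgeR). Fkbp5 stood at 69.9 CPM in the KO library that stood apart. In the other 24 h vehicle libraries it stood at 12.4 to 19.0 CPM, against 10.9 to 14.7 CPM untreated. Tsc22d3 stood at 311, 529 and 187 CPM in KO and 360, 187 and 229 CPM in WT, against 197 to 228 CPM untreated. No fit of these genes without that library is given. Ms4a4a rose by 1.07 ± 0.15 (adjusted p = 9.43e-07, edgeR). Whether a glucocorticoid response had a part in the rise of Mt1 and Mt2 with vehicle was not tested. After 2 h the differences were 0.32 ± 0.15 for Mt1 (adjusted p = 0.18, edgeR) and 0.61 ± 0.22 for Mt2 (adjusted p = 0.0616, edgeR), with 13.8% of genes called, and DESeq2 called Mt2 (0.62, adjusted p = 0.0199). After 8 h they were 0.19 ± 0.15 for Mt1 and 0.15 ± 0.22 for Mt2, neither of which passed (adjusted p = 0.42 and 0.697, edgeR), with 18.2% called. Mtf1 was not called at any time, at 0.02, 0.08 and 0.03. These 3 comparisons share the untreated libraries.

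Beside their responses to treatment, Mt1 and Mt2 moved together from library to library. Over all 42 libraries their deviations from the group means of log2 CPM correlated with a Pearson r of 0.914, while Mt1 with Mtf1 gave -0.25 and Mt2 with Mtf1 gave -0.184; the values of a library share its depth and scaling. Within their groups the libraries with number 3 were lowest in 10 of 14 groups for Mt1 and in 10 of 14 for Mt2. The libraries with number 2 were highest in 10 groups for Mt1 and in 9 for Mt2. For Mtf1, number 3 was lowest in 3 groups and number 2 highest in 3.

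The genes most like each member were taken by the Pearson r of mean log2 CPM over the 14 groups, as a description. For Mt1 these were Mt2 (0.976), the phosphatidate phosphatase gene Lpin1 (0.968), the glutamine synthetase gene Glul (0.968), Tcp11l2 (0.967) and the focal adhesion gene Tns1 (0.966). For Mt2 they were Tcp11l2 (0.977), Mt1 (0.976), Fam13a (0.973), C77080 (0.97) and the glucocorticoid-induced leucine zipper gene Tsc22d3 (0.969). For Mtf1 they were the hypoxia factor gene Hif1a (0.927), Uggt2 (0.905), the arginase gene Arg2 (0.892), Zzz3 (0.88) and the MHC class II regulator Rfx5 (0.868). Mtf1 itself had an r of 0.126 with Mt1 and of -0.004 with Mt2 over the same 14 groups.

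Zinc transporter genes, which set how much zinc enters or leaves the cytosol, changed in both directions with Dex, averaged over KO and WT. Of 24 listed genes 18 were measured, and 1 was called higher and 2 lower at 2 h, 2 higher and 6 lower at 8 h, and 1 higher and 10 lower at 24 h. Of all genes 8.14% were called higher and 6.41% lower at 2 h, 27.5% and 24.7% at 8 h, and 26.8% in each direction at 24 h. The median log2 fold change of the 18 was -0.02, -0.11 and -0.21 at these times, against -0.005, 0.01 and 0.008 over all genes. Slc30a1, the exporter of the plasma membrane, was lower at each time, at 31.0 CPM with Dex and 49.3 CPM with vehicle at 2 h (log2 fold change -0.68 ± 0.09, adjusted p = 4.2e-07, edgeR), by -0.77 ± 0.09 at 8 h and by -0.70 ± 0.09 at 24 h. The importers Slc39a6 and Slc39a10 fell from 8 h on. Slc39a6 was at 44.9 CPM with Dex and 96.8 CPM with vehicle at 8 h (-1.11 ± 0.06, adjusted p = 2.36e-16, edgeR), and at -1.20 ± 0.06 at 24 h. Slc39a10 was at 33.9 CPM with Dex and 71.8 CPM with vehicle at 8 h (-1.08 ± 0.09, adjusted p = 8.03e-12, edgeR), and at -0.89 ± 0.09 at 24 h. The importer Slc39a12 went against them at 8 h, at 5.31 CPM with Dex and 0.758 CPM with vehicle (6.98-fold, adjusted p = 1.19e-11, edgeR). Slc30a5, which carries zinc into the secretory pathway, was lower at 8 h (-0.40 ± 0.05) and 24 h (-0.36 ± 0.05). At 2 h Slc39a13 was lower (-0.33 ± 0.06) and Slc30a4 higher (0.27 ± 0.09). Slc39a13 was lower at 8 h too (-0.41 ± 0.06) and not called at 24 h. Slc30a4 was not called at 8 h and was lower at 24 h (-0.35 ± 0.09).

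Of 17 genes of copper handling 13 were measured, and 0 were called higher and 1 lower at 2 h, 2 higher and 5 lower at 8 h, and 2 higher and 3 lower at 24 h, beside 26.8% of all genes called in each direction at 24 h, 27.5% higher and 24.7% lower at 8 h and 8.14% and 6.41% at 2 h. The median log2 fold change was -0.03, -0.06 and -0.01. The higher ones were the copper importer Slc31a1, at 483 CPM with Dex and 195 CPM with vehicle at 8 h (2.47-fold, adjusted p = 6.58e-19, edgeR) and 2.83-fold higher at 24 h, and its relative Slc31a2, at 159 CPM with Dex and 78.8 CPM with vehicle at 8 h (2.01-fold, adjusted p = 6.09e-16, edgeR) and 1.60-fold higher at 24 h. Steap3, a metalloreductase, was lower by -0.95 ± 0.09 at 8 h and -1.01 ± 0.09 at 24 h. The copper chaperone gene Cox17 was lower at 8 h (-0.38 ± 0.12) and not called at 24 h (0.01 ± 0.12). Atox1, another copper chaperone gene, was lower at 8 h (-0.35 ± 0.11) and 24 h (-0.46 ± 0.11). At 2 h the lower gene was Cox11 (-0.24 ± 0.07). Beside the 0 genes called higher at 2 h by edgeR, 1 had an unadjusted p under 0.05 and DESeq2 called 0.

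Of 8 listed symbols of reported MTF1 targets other than metallothioneins 6 were measured, with 1 called higher and 1 lower at 2 h, 1 higher and 2 lower at 8 h, and 0 higher and 3 lower at 24 h, and a median log2 fold change of -0.02, -0.02 and -0.49. The shares of all genes called were 8.14% higher and 6.41% lower at 2 h, 27.5% and 24.7% at 8 h, and 26.8% each at 24 h. Slc30a1 and Slc39a10, given above, are among them. Ndrg1, a stress-responsive gene, was higher at 2 h (0.47 ± 0.08, adjusted p = 1.95e-05, edgeR) and 8 h (0.51 ± 0.08, adjusted p = 1.31e-06, edgeR), and gave -0.14 ± 0.08 at 24 h. Csrp1, a LIM-domain gene, was lower at 24 h (-0.71 ± 0.07, adjusted p = 8.56e-11, edgeR). Sepw1, a selenoprotein gene, and Gclc, the catalytic subunit of the first enzyme of glutathione synthesis, were not called at any time, at -0.27 to -0.05 and -0.06 to 0.07. At 24 h, when Mt1 and Mt2 were called higher, edgeR and DESeq2 each called 0 of the 6 higher, and 0 were higher at an unadjusted p under 0.05. The list does not separate targets that MTF1 raises from targets that it lowers. These counts therefore give no direction of MTF1 activity, which was not tested.

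Around the metallothionein genes, 11 other genes of the table lie within 500 kb on chromosome 8, and 2 were called higher and 0 lower at 2 h, 7 higher and 1 lower at 8 h, and 4 higher and 1 lower at 24 h, where 8.14%, 27.5% and 26.8% of all genes were called higher and 6.41%, 24.7% and 26.8% lower. Their median log2 fold change was 0.05, 0.15 and 0.003. At 2 h, 0 were lower also at an unadjusted p under 0.05 and by DESeq2. The nearest before Mt2, at 73736 bp, was Bbs2, a gene of the primary cilium complex, which was not called at 2 h (0.07) and was higher at 8 h (0.48 ± 0.11, adjusted p = 0.000651, edgeR) and 24 h (0.38 ± 0.11, adjusted p = 0.00589, edgeR). The nearest after Mt1, at 34237 bp, was the nuclear pore gene Nup93, higher at 2 h (0.17 ± 0.05) and 8 h (0.28 ± 0.05) and at -0.02 at 24 h. Herpud1, a gene of the endoplasmic reticulum stress response at 206111 bp, had the highest fold change of the 11 at each time, 2.02, 2.98 and 2.62. Cpne2 was lower at 8 h (-0.39 ± 0.06), and Fam192a (0.37 ± 0.05) and Rspry1 (0.27 ± 0.05) were higher at 24 h; the last 2 overlap on opposite strands, so their counts could be shared.

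**Figure D5:**
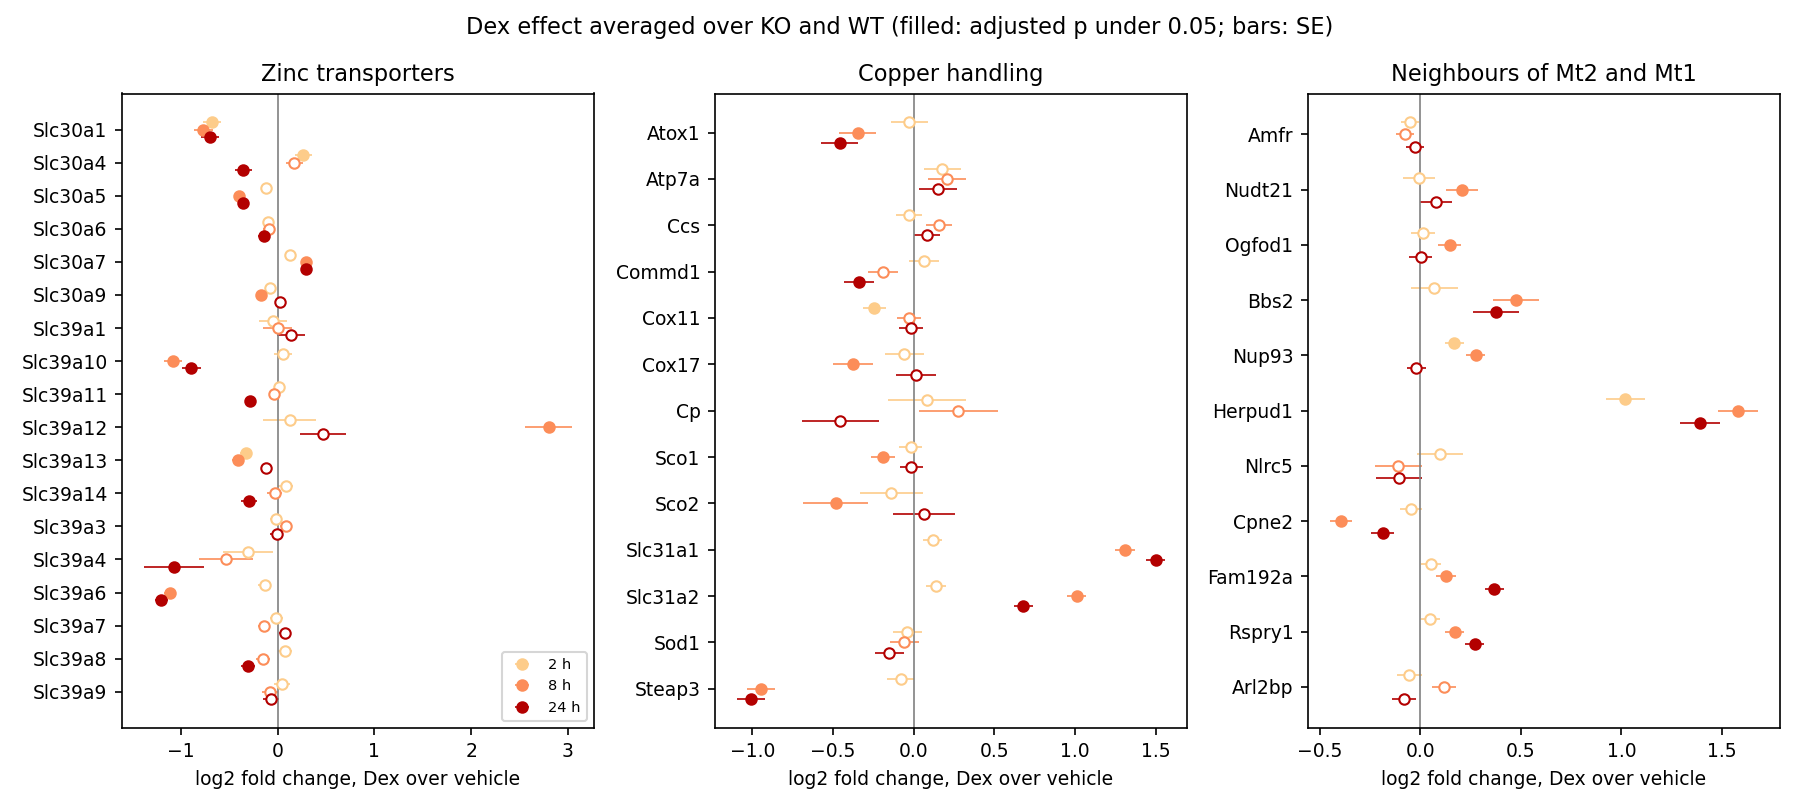
Log2 fold change of Dex over vehicle, averaged over KO and WT (x axis), for the measured zinc transporter genes, copper handling genes and neighbours of Mt2 and Mt1 (rows), at 2, 8 and 24 h (colours), with filled points for an adjusted p under 0.05 and bars for the SE. Slc30a1 lies left of 0 at each time, Slc31a1 and Slc31a2 lie right of 0 at 8 and 24 h, and Herpud1 leads the neighbours.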

How the data were processed

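RNA was measured in 42 libraries, grouped by their titles into 14 groups of 3. The deposited table holds expected counts per gene symbol, which the authors estimated from reads; the submitters' processing notes name HISAT2, Salmon, fastp and the assembly GRCm38 without versions or roles. The annotation behind the counts and the choice of genes were not given in the sources used here. Libraries hold 10140211 to 33528397 counts (median 27998690), and the lowest count of a member in a library is 737 for Mt1, 51 for Mt2 and 259 for Mtf1.

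Expected counts were rounded and tested with edgeR 4.0.16 (R 4.3.3) by quasi-likelihood F tests on the 14 group means of all 42 libraries, TMM scaling (factors 0.95 to 1.04), filterByExpr (0 genes removed) and Benjamini-Hochberg adjustment over 11160 genes, called under 0.05. An SE is the absolute log2 fold change over the root of F, and 95% intervals use it with the median 32.9 degrees of freedom. The test was checked on simulated counts. Alternatives were DESeq2 1.42.0, median-ratio scaling, other filters and prior counts, the compared groups alone, summed Mt1 and Mt2, sets summed over conditions, the replicate block and each library left out.

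The genes named beside the members are the called list members with the lowest p (at most 4 a time), all measured MTF1 targets, the nearest neighbours, the 5 genes most like each member, and Ms4a4a, Fkbp5 and Tsc22d3 as checks. Members and lists were chosen with earlier results of these data known. Same-numbered libraries were taken as pairs where each correlation of their deviations was over 0.1: Dex in KO at 2 h (lowest 0.122) and 8 h (0.111) and in WT at 8 h (0.294) and 24 h (0.256), KO against WT with vehicle at 2, 8 and 24 h (0.239, 0.229, 0.227) and with Dex at 2 h (0.254), and vehicle against untreated KO cells at 2, 8 and 24 h (0.13, 0.255, 0.369). Annotation is GENCODE M21, promoter windows are RefSeq's.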

Additional observations from a re-analysis of the deposited data

Results flagged for a closer look

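The Dex effect on Mt1 was larger at 8 h than at 2 h by 0.60 on the log2 scale (adjusted p = 0.026, edgeR), averaged over KO and WT, and it passed in 17 of 24 fits without 1 library. The Dex effect on Mt2 was larger at 8 h than at 2 h by 0.97 (adjusted p = 0.00882, edgeR) and passed in 24 of 24 such fits. The Dex effect on Mt2 differed by -0.89 between 24 h and 8 h (adjusted p = 0.0191, edgeR), which passed in 24 of 24 such fits and not with Mt1 and Mt2 summed. What stands out is that the same contrast gave different sizes at different times, by a test of the difference itself. The mean vehicle level of Mt2 was higher at 24 h than at 8 h in both genotypes. The smaller Mt2 effect at 24 h is thus not a fall of the Dex level alone.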

How the results depend on the processing

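Dex over vehicle kept its direction and its call for Mt1 and Mt2 in all settings and leave-out fits except Mt1 in WT at 2 h, which did not pass on the compared groups alone (0.67, adjusted p = 0.121, edgeR) and ran between 0.43 and 0.86 without 1 library. Fits without 1 library put the Mt1 effect at 8 h minus 2 h between 0.48 and 0.70, and Mt2 in 2 h vehicle over untreated cells between 0.50 and 0.71. In the fit with a block for the replicate number, Mt1 passed in KO over WT averaged without Dex (-0.33, adjusted p = 0.0221, edgeR; -0.34 and adjusted p = 1.0 with sets summed over conditions) and in 2 h vehicle over untreated cells (0.33, adjusted p = 0.0288), and Mt2 passed in 2 h vehicle over untreated cells (0.63, adjusted p = 0.0122). The block also gave 2 copper genes called at 2 h in place of 1, and it changed no other call of a member. The numbers paired some of the conditions in these averages only. Mt2 in 2 h vehicle over untreated cells also passed on the compared groups alone (0.62, adjusted p = 0.0421, edgeR) and with DESeq2 (0.62, adjusted p = 0.0199). For Dex at 8 h, DESeq2 called 8 zinc transporter genes lower where edgeR called 6, and 6 neighbours higher where edgeR called 7. It gave the same counts as edgeR for the other lists, directions and times. With Mt1 and Mt2 summed, the Dex effect in KO minus that in WT was 0.031 at 8 h and 0.0039 at 24 h, above 0 where Mt2 alone was below it, and 24 h minus 8 h was -0.41 (adjusted p = 0.168, edgeR); summing gives mostly Mt1 counts by construction. With median-ratio scaling 9 of 14 groups had the same place in the order of Mtf1.

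Some differences that did not pass in any fit changed sign. Mtf1 in KO at 24 h, Dex over vehicle, was -0.0049 with median-ratio scaling, -0.0087 with a mean of at least 5 CPM, -5.9e-06 on the compared groups alone, -0.0043 with DESeq2 and -0.072 to 0.086 without 1 library. Mtf1 in KO over WT averaged without Dex was -0.0064 with sets summed and -0.023 to 0.030 without 1 library. The other ranges without 1 library follow. For the Dex effect in KO minus that in WT they were -0.063 to 0.25 (8 h) and -0.16 to 0.20 (24 h) for Mt1, -0.036 to 0.60 (2 h) and -0.30 to 0.075 (8 h) for Mt2, and -0.047 to 0.027 (2 h) and -0.080 to 0.018 (8 h) for Mtf1. For KO over WT they were -0.22 to 0.21 for Mt1 with Dex at 2 h, -0.27 to 0.11 for Mt2 with vehicle at 24 h and -0.48 to 0.16 for Mt2 with Dex at 2 h. For Mtf1 they were -0.12 to 0.087 untreated, -0.033 to 0.038 with vehicle at 2 h, -0.025 to 0.019 with Dex at 2 h and -0.15 to 0.026 with Dex at 24 h. For Mtf1 in vehicle over untreated cells they were -0.020 to 0.071 at 2 h and -0.016 to 0.083 at 24 h. The cause of these changes was not tested. Mt2 had as few as 51 counts in a library, which limits its precision at low levels.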
